A study of Nothobranchius furzeri with 6 samples.

Results

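The cadherin and protocadherin genes of the killifish retina were taken as every entry of the gene table whose short name begins with CDH or PCDH, whatever the case. This gave 67 of 24989 entries with 49 distinct names, and 29 of the entries shared their name with another one. They held 378543 unique molecular identifiers (UMIs, random tags that let amplified copies of a transcript be counted once), with 1 to 51362 UMIs per entry. The fish were untreated wildtype Nothobranchius furzeri, the African turquoise killifish, from the GRZ-AD inbred strain. This short-lived vertebrate is used to study ageing, and neural retinas were taken. Single cells of 6-, 12-, and 18-week-old fish were profiled in 2 libraries per age. Each 6-week-old library pooled 3 fish and each 12- or 18-week-old library pooled 2 fish, so that a library is not a single animal. The retinal pigment epithelium had been removed and the retinas had been dissociated with papain.

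Cadherins are calcium-dependent adhesion molecules that span the cell membrane. Classical cadherins bind their own kind on a neighbouring cell and are anchored to actin by catenins. Protocadherins lack the catenin-binding tail and are known for roles in neuronal recognition, and the clustered protocadherins let the branches of a mouse starburst amacrine cell tell self from non-self. In photoreceptors, protocadherin-15 and the photoreceptor cadherin CDHR1 are found at the outer segment and the processes around it, and mutations in human PCDH15 and CDH23 cause Usher syndrome, which affects hearing and sight.

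The libraries held 4804 to 7235 cells and 17393089 to 24317894 UMIs each, with a median of 2082 to 2574.5 UMIs per cell. Between 40 and 66 cell barcodes of each library also occurred in another library. Of the authors' 18 cell type names, 16 had at least 10 cells in every library and were used. CPM is the UMI count of an entry scaled to 1000000 UMIs of the cell type in that library, and levels are given as mean ± SD over the 6 libraries. The chemistry counts one 3′ end per transcript, so CPM is not scaled by gene length. Summed marker lists were highest in the named type for rods, cones, bipolar, ganglion, immune and differentiating cells, Müller glia and oligodendrocytes, and in an amacrine type for amacrine cells. The 4 horizontal cell marker entries summed highest in GABAergic amacrine cells (mean 1459 CPM, against 469 to 699 CPM over the 6 libraries of horizontal cells), so that this list does not set horizontal cells apart. Cell types had been clustered on expression, and levels across types are therefore a description with no test.

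Of the 67 entries, 51 reached a mean of 20 CPM in at least 1 cell type (76.1%, against 54.1% of all entries in the gene table), 39 reached 50 CPM and 35 reached 100 CPM. By family these 51 were 16 of 23 cadherins, both CDH23 entries, all 6 cadherin-related entries, 5 of 10 PCDH2A entries (the name that zebrafish annotation uses for a protocadherin gene cluster) and 22 of 26 other protocadherins. The other 16 entries stayed between 0.0800 and 19.4 CPM in their highest type, among them all 3 CDH26 entries. No entry named CDH1 was analysed here. GABAergic amacrine and ganglion cells carried the most members. GABAergic amacrine cells had 40 members at 20 CPM, retinal ganglion cells 34, glycinergic amacrine cells 32, and bipolar and starburst amacrine cells 28 each. GABAergic/PVALB5 amacrine cells had 21. These counts were not set against the number of all genes at 20 CPM in each type. Immune cells had 5, Müller glia 10, and horizontal cells and oligodendrocytes 11 each. Those of immune cells include PCDH15A (XLOC_007695, 44.8 CPM) and CDHR1 (2 OF 2) (XLOC_018771, 38.4 CPM), the leading members of rods. The rod marker entries summed to 4888 CPM in immune cells, against 111696 CPM in rods. The part of RNA from other cells in these counts was not tested. The summed level of all members was 8764 ± 1199 CPM in starburst amacrine cells, 7282 ± 666 CPM in ganglion cells and 5986 ± 462 CPM in GABAergic amacrine cells. It was 1171 ± 103 CPM in Müller glia and 429 ± 150 CPM in immune cells.

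**Figure D1:**
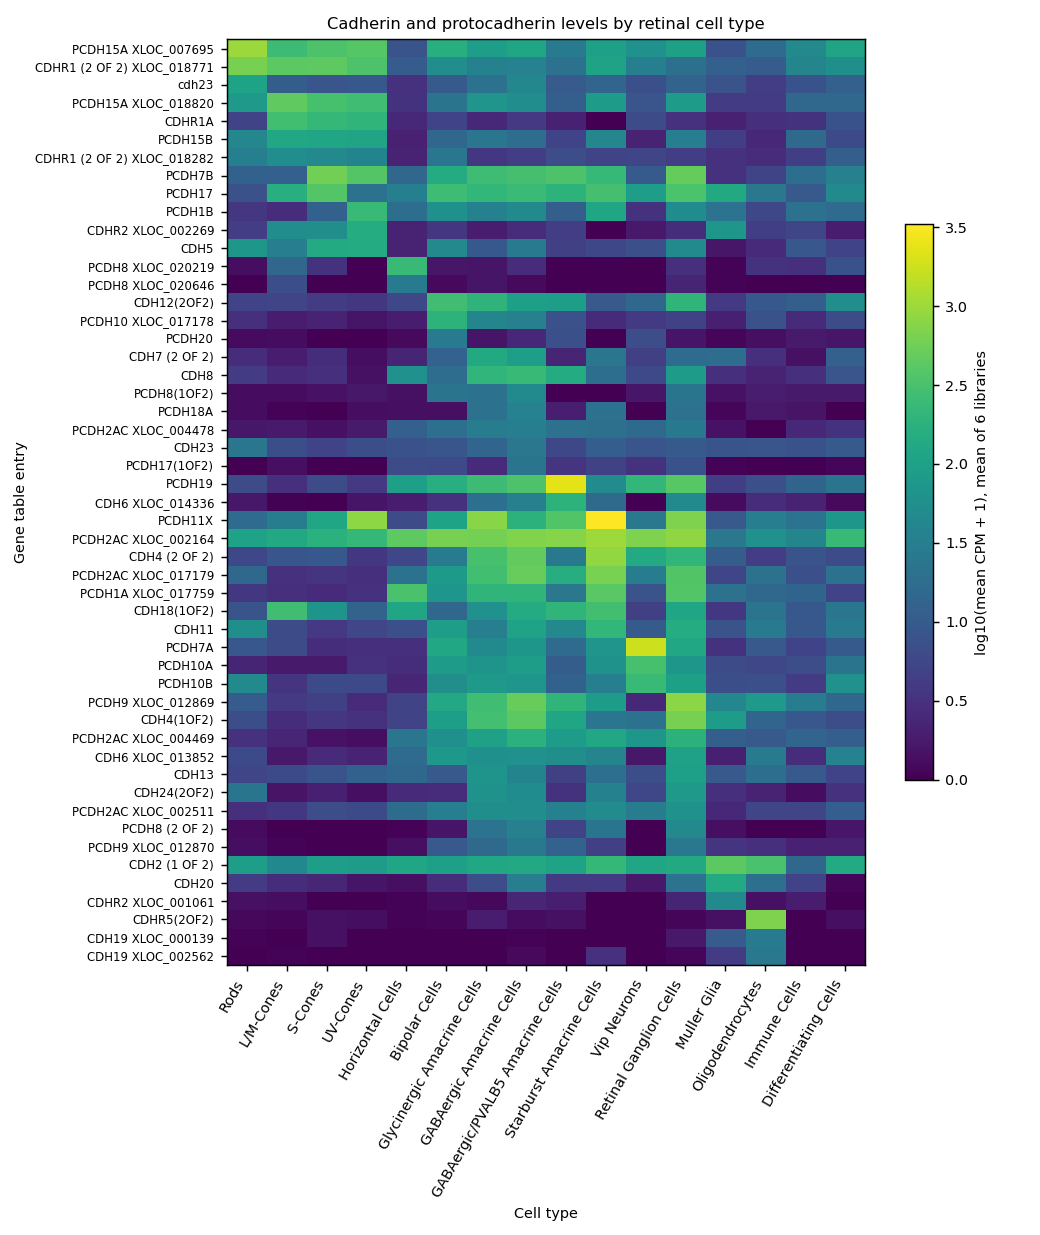
Mean level of the 51 entries that reached 20 CPM (rows, sorted by the type of highest level) in 16 cell types (columns), as log10(mean CPM + 1) over 6 libraries. Most rows are bright in a few types, while PCDH2AC XLOC_002164 is at 20 CPM or more in all 16.

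The cell type of highest level was the same in all 6 libraries for 29 of these 51 entries. Ganglion cells held the highest level of 9 members (17.6% of the 51, against 8.70% of all entries that reached 20 CPM), starburst amacrine cells of 7 (13.7% against 7.64%) and GABAergic amacrine cells of 6 (11.8% against 5.03%). Differentiating and immune cells held the highest level of no member, although 8.17% and 7.62% of all entries peaked there. There were 8 members at 20 CPM in a single type, and 1, PCDH2AC (XLOC_002164), in all 16.

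Among the amacrine types, the highest levels belonged to protocadherins. PCDH11X (XLOC_005229), named after the X-linked human gene, was at 3789 and 2440 CPM in the 6-week-old, 2876 and 3925 CPM in the 12-week-old and 3431 and 3275 CPM in the 18-week-old libraries of starburst amacrine cells. Its mean there was 3289 ± 560 CPM, and the next type, UV-cones, had 818 ± 171 CPM. Every starburst library was above every UV-cone library, and horizontal cells were lowest with 5.5 CPM. PCDH11X was also the leading member in glycinergic amacrine cells (774 ± 405 CPM) and UV-cones.

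PCDH19 (XLOC_005256), a protocadherin whose human gene is linked to epilepsy, was at 2451, 2318, 2006, 2722, 2149 and 2594 CPM in GABAergic/PVALB5 amacrine cells, in the order of the 6-, 12-, and 18-week-old libraries. The mean was 2373 ± 270 CPM, and ganglion cells followed with 401 ± 64.1 CPM. Its 6 libraries were above every library of the other types. At least 1 UMI of PCDH19 was found in 97.4% of the GABAergic/PVALB5 amacrine cells.

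PCDH7A (XLOC_013552) was at 1840, 1738, 1514, 1910, 1698 and 1849 CPM in the cells named Vip neurons (mean 1758 ± 143 CPM). Bipolar cells were next with 128 ± 14.8 CPM. Here too, each library of the leading type was above all libraries of the others. Vip neurons also had the highest levels of PCDH10A (XLOC_005952, 309 ± 29.9 CPM) and PCDH10B (XLOC_004357, 236 ± 33.6 CPM), 2 of the delta-protocadherins.

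The clustered entry PCDH2AC (XLOC_002164) was the member with the highest level in the sum of all cells (415 ± 47.8 CPM) and the first or second member in 10 of the 16 types. It ran from 23.5 CPM in Müller glia to 1019 ± 95.8 CPM in starburst amacrine cells. Starburst and ganglion cells (856 ± 42.2 CPM) led in this order in all 6 libraries. A second clustered entry, PCDH2AC (XLOC_017179), was also highest in starburst amacrine cells with 636 ± 67.8 CPM, but GABAergic amacrine cells (494 ± 71.9 CPM) passed them in 1 library. PCDH2AC (XLOC_004469) was at 184 ± 29.2 CPM in ganglion cells and at 177 ± 20.5 CPM in GABAergic amacrine cells, a difference within the spread between libraries. The remaining clustered entries at 20 CPM were PCDH2AC (XLOC_002511, 60.5 ± 12.2 CPM in ganglion cells) and PCDH2AC (XLOC_004478, 30.7 ± 12.0 CPM in GABAergic amacrine cells).

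Ganglion cells had the highest level of PCDH9 (XLOC_012869), with 743, 548, 776, 969, 698 and 1057 CPM in the 6 libraries (mean 798 ± 185 CPM, and 496 ± 102 CPM in GABAergic amacrine cells). The other entry of that name, PCDH9 (XLOC_012870), was much lower and did not separate ganglion cells (25.6 ± 4.68 CPM) from GABAergic amacrine cells (25.5 ± 6.36 CPM). Some type II cadherins mark subsets of neurons in the mouse retina. The type II cadherin CDH8 (XLOC_000077) was at 232 ± 67.6 CPM in GABAergic and 203 ± 55.6 CPM in glycinergic amacrine cells, which did not differ beyond their spread. CDH11 (XLOC_008319) was highest in starburst amacrine cells (210 ± 46.0 CPM) and CDH12(2OF2) (XLOC_014335) in bipolar cells (274 ± 30.3 CPM). CDH18(1OF2) (XLOC_014334) was at 278 ± 52.1 CPM in starburst amacrine cells and 276 ± 62.8 CPM in L/M-cones, which did not differ beyond their spread.

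In rods and L/M-cones the leading members were a PCDH15A and a CDHR1 entry, known from Usher syndrome and the outer segment. PCDH7B led in S-cones and PCDH11X in UV-cones. PCDH15A (XLOC_007695) was at 1278 and 817 CPM in the 6-week-old, 695 and 1190 CPM in the 12-week-old and 822 and 963 CPM in the 18-week-old libraries of rods. The replicates of 1 age differed by more than the age means did. Its mean was 961 ± 230 CPM in rods, 384 ± 88.3 CPM in UV-cones, 338 ± 64 CPM in S-cones and 260 ± 33 CPM in L/M-cones.

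The second entry of that name, PCDH15A (XLOC_018820), had the opposite order. It was at 454 ± 116 CPM in L/M-cones, 309 ± 66.6 CPM in S-cones and 76.2 ± 15 CPM in rods. Rods were highest for the first PCDH15A entry in all 6 libraries and L/M-cones for the second, also in all 6. PCDH15B (XLOC_018819) was level over the cones, with 123 ± 20.9 CPM in L/M-, 118 ± 13 CPM in S- and 112 ± 16 CPM in UV-cones, and lower in rods (41.8 ± 12 CPM). The entry number of XLOC_018820 directly follows that of PCDH15B. Neither XLOC_018820 nor XLOC_007695 matched a RefSeq gene. Whether XLOC_018820 is a copy of PCDH15A is therefore uncertain, and the identity of XLOC_007695 rests on its name.

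The CDHR1 entries differed in their balance between rods and cones. CDHR1 (2 OF 2) (XLOC_018771) was at 628 ± 48.9 CPM in rods and 347 to 438 CPM in the cone types. CDHR1A (XLOC_007642) was at 341, 309, 281, 291, 219 and 244 CPM in L/M-cones and at 4.19 ± 1.4 CPM in rods. It reached 20 CPM in the 3 cone types and in no other type. The other CDHR1 (2 OF 2) entry (XLOC_018282) was lower, with 52.4 ± 9.99 CPM in L/M-cones, 44.8 ± 12.4 CPM in S-cones, 37.2 CPM in UV-cones and 32.4 CPM in rods.

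The tip-link cadherin cdh23 (XLOC_007421), partner of protocadherin-15 in hair cells, was highest in rods with 181, 104, 70.5, 150, 69.6 and 72.2 CPM. One library of each of the younger ages was well above the others. GABAergic amacrine cells followed with 41.6 ± 20 CPM, and the cone types had 7.53 to 9.83 CPM. The other entry named CDH23 (XLOC_020964) carries a second name of another gene, actr5, so its identity is uncertain, and it stood at 24.1 ± 6.73 CPM in GABAergic amacrine cells and 23.4 ± 3.31 CPM in rods.

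S-cones had the highest level of PCDH7B (XLOC_008898, 588 ± 74.3 CPM), ahead of ganglion cells (486 ± 60.5 CPM) in all 6 libraries. PCDH17 (XLOC_013337), another delta-protocadherin, was at 373 ± 90.7 CPM in S-cones and 330 ± 141 CPM in ganglion cells, which overlapped. CDH5 (XLOC_007632), the cadherin of vascular endothelium in mammals, was at 147 ± 31.4 CPM in UV-cones and 140 ± 25.4 CPM in S-cones and was lowest in Müller glia (0.66 CPM). The 2 endothelial marker entries apart from CDH5 summed to at most 4.24 CPM in any UV-cone library. They summed to 1046 CPM in Müller glia and to 11.6 CPM in the next type, ganglion cells. The list was thus highest where CDH5 was lowest, and it cannot tell where the CDH5 RNA of the cone libraries came from.

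Horizontal cells, whose leading members were PCDH2AC (XLOC_002164, 440 ± 27.7 CPM) and PCDH1A (XLOC_017759, 317 ± 60.3 CPM), were marked among the members by PCDH8 (XLOC_020219). It was at 233, 214, 207, 208, 264 and 265 CPM there (mean 232 ± 27.1 CPM), and the next type, L/M-cones, had 13.6 ± 4.73 CPM. Every horizontal cell library was above every library of the other types. The fainter PCDH8 entry XLOC_020646 had the same leading pair of types, with 27.9 ± 2.44 and 6.11 ± 2.94 CPM.

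In glia, CDH2 (1 OF 2) (XLOC_014721), the N-cadherin needed for retinal layering in zebrafish, was at 425 ± 36.7 CPM in Müller glia and 325 ± 52 CPM in oligodendrocytes and reached 20 CPM in 15 types. CDH20 (XLOC_013853) was at 138 ± 21.8 CPM in Müller glia and 31.1 ± 12.9 CPM in the next type. The highest contrast of all members was that of CDHR5(2OF2) (XLOC_013377), whose mammalian counterpart links microvilli of the gut. It was at 757, 605, 576, 682, 717 and 776 CPM in oligodendrocytes (mean 685 ± 81.1 CPM), and no other type had a mean above 0.927 CPM. UMIs of CDHR5(2OF2) were found in 86.2% of oligodendrocytes.

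Where a gene had several entries, these were compared to see whether copies share a cell type. There were 14 names with at least 2 entries at 20 CPM (letters a and b counted together). Of these, 12 had entries with different types of highest level and 2 (CDH19 and PCDH9) had a single one. The type that held most highest levels, oligodendrocytes, had 10.1% of all entries that reached 20 CPM. Unrelated entries would therefore often peak in different types as well, and the count does not show that copies diverge. The 12 include CDH23, whose second entry is of uncertain identity and was nearly as high in rods as in its highest type. They also include 3 names (CDH6, PCDH2AC and PCDH8) with entries that matched the same RefSeq gene, so that these may not be separate copies. PCDH7A led in Vip neurons and PCDH7B in S-cones. CDH4(1OF2) (XLOC_015853), an R-cadherin entry, was at 631 ± 135 CPM in ganglion cells, and CDH4 (2 OF 2) (XLOC_021752) at 882 ± 173 CPM in starburst amacrine cells. CDH6 (XLOC_014336) was at 186 ± 26.8 CPM in GABAergic/PVALB5 amacrine cells, and CDH6 (XLOC_013852) at 101 ± 20.3 CPM in ganglion cells. PCDH10 (XLOC_017178) was at 189 ± 29.9 CPM in bipolar cells, unlike PCDH10A and PCDH10B, which both led in Vip neurons. PCDH10 is therefore among the 12 only through this entry. The entry matched a RefSeq gene not named pcdh10 that lies beside a PCDH2AC entry, so whether it is a PCDH10 copy is uncertain. CDHR2, another gene of gut microvilli, had an entry at 150 ± 47.9 CPM in UV-cones (XLOC_002269) and one at 45.4 ± 7.67 CPM in Müller glia (XLOC_001061). Reads that fit several copies could have been assigned to either entry, so a level of a single copy is uncertain.

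The smaller entries of shared names followed no single pattern. PCDH8(1OF2) (XLOC_014913) was at 47.8 ± 12.6 CPM in GABAergic amacrine cells, PCDH8 (2 OF 2) (XLOC_020645) at 44.0 ± 6.15 CPM in ganglion cells and PCDH17(1OF2) (XLOC_020220) at 21.7 ± 8.93 CPM in GABAergic amacrine cells. PCDH1B (XLOC_004681) was at 230 ± 45.4 CPM in UV-cones, while PCDH1A (XLOC_017759) was at 418 ± 91.9 CPM in starburst amacrine and 370 ± 38.7 CPM in ganglion cells.

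By name, 48 members matched a protein-coding gene of the RefSeq table of a newer assembly (NfurGRZ-RIMD1), 39 of them one that no other member matched. In that table PCDH10 (XLOC_017178) and PCDH2AC (XLOC_017179) were direct neighbours on chromosome 10. The first was highest in bipolar and the second in starburst amacrine cells. PCDH10A and PCDH18A were direct neighbours on chromosome 6, and 1 coding gene lay between PCDH10B and PCDH18B on chromosome 1. The neighbours PCDH18A (XLOC_006751, 34.9 ± 8.50 CPM) and PCDH10A led in different types, GABAergic amacrine cells and Vip neurons. PCDH17(1OF2) and PCDH8(1OF2), direct neighbours on chromosome 14, were both highest in GABAergic amacrine cells (21.7 and 47.8 CPM), though other entries matched the same PCDH8 gene. Neighbours thus shared a leading type in some cases and not in others. How often neighbouring genes in general share one was not taken.

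Bipolar cells, interneurons between photoreceptors and ganglion cells, fall into 13 of the authors' clusters, and levels of members were also described in each cluster. There were 38 members at 20 CPM in a cluster and 25 at 100 CPM, and these 25 had their highest level in 10 different clusters. Of the 25, 20 had the same leading cluster in all 6 libraries and 23 had a level in the leading cluster over 10 times that in the lowest. The 25 had been taken by their level in the leading cluster, and the lowest cluster could hold very few UMIs. The share of all genes with such a contrast was not taken, so it is not shown to be particular to the members. Clusters had been formed on expression, so these levels are a description as well.

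PCDH7A (XLOC_013552) was at 1149 ± 110 CPM in cluster 26 and 415 ± 50.5 CPM in cluster 16, and lowest in cluster 25 (3.63 CPM from 3 UMIs). PCDH10 (XLOC_017178) was at 952 ± 69.3 CPM in cluster 16 and 620 ± 95.2 CPM in cluster 13, and lowest in cluster 25 (1 UMI). PCDH17 (XLOC_013337) was at 958 ± 175 CPM in cluster 8 and 315 ± 62.1 CPM in cluster 19. These protocadherins thus led in different bipolar clusters.

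CDH12(2OF2) (XLOC_014335, 898 ± 125 CPM), CDH4(1OF2) (XLOC_015853, 554 ± 156 CPM) and PCDH19 (XLOC_005256, 509 ± 76 CPM) were all highest in cluster 14. PCDH9 (XLOC_012869) was highest in cluster 25 (733 ± 188 CPM), PCDH10B (XLOC_004357) in cluster 12 (601 ± 113 CPM), CDH11 (XLOC_008319) in cluster 19 (350 ± 51.7 CPM) and CDH8 (XLOC_000077) in cluster 1 (135 ± 24.3 CPM). The 2 members without a contrast of over 10 times were PCDH2AC (XLOC_002164), between 450 and 890 CPM in every bipolar cluster, and CDH2 (1 OF 2), which went from 29.2 CPM in cluster 19 to 259 ± 40.9 CPM in cluster 14.

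**Figure D2:**
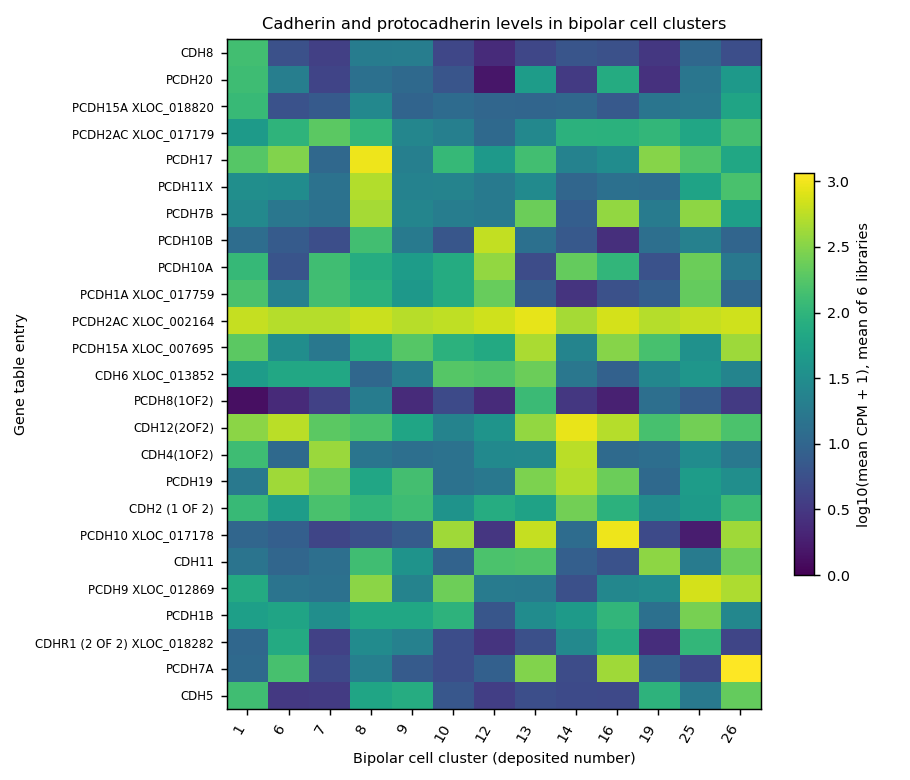
Mean level of the 25 entries that reached 100 CPM in a bipolar cluster (rows, sorted by leading cluster) in the 13 bipolar clusters (columns, numbered as deposited), as log10(mean CPM + 1) over 6 libraries. PCDH2AC XLOC_002164 ranges from 450 to 890 CPM over the columns, while in 23 of the 25 rows the leading cluster is over 10 times the lowest.

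Whether members change with age was tested with edgeR on counts summed over each library (2 libraries per age), in all cells and in each type. Few members passed this test. Summed over all cells, 60 members passed the low-count filter, and 1 was called at 18 against 6 weeks at an adjusted p of 5% (3.63% of all genes tested were called). In the 16 types 399 member and type pairs were tested, and 4 were called, 1 higher and 3 lower (2.36% of all gene and type pairs were called). At an unadjusted p under 0.05 there were 16 of 60 members in all cells (3 higher, 13 lower, 26.7%, against 23.6% of all genes) and 81 of 399 pairs (29 higher, 52 lower, 20.3%, against 13.9%). The median log2 fold change of the members was −0.15 in all cells, beside 0.01 for all genes. A sum over cells cannot tell fewer cells of a type from less RNA per cell. Amacrine cells, in which many members were highest, were 12.1% and 10.9% of cells at 6 weeks. They were 6.24% and 8.60% at 18 weeks, and the part of such shares in the median was not tested.

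At the intermediate age no member was called. At 12 against 6 weeks edgeR called 0 of 60 members in all cells (0% of all genes) and 0 of 399 pairs (0.122% of all pairs). DESeq2 called 0 and 0. At an unadjusted edgeR p under 0.05 there were 3 members (5%, against 5.67% of all genes) and 29 pairs (7.27%, against 5.41%). At 18 against 12 weeks edgeR called 0 of 60 (0.0686% of all genes) and 0 of 399 pairs (0.493% of all pairs), and DESeq2 called 0 and 0. Here 5 members (8.33%, against 13.0% of all genes) and 45 pairs (11.3%, against 8.94%) had an unadjusted edgeR p under 0.05.

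PCDH8 (XLOC_020219), the member of horizontal cells, was the 1 called in all cells. Its level was 23.4 and 22.8 CPM in the 6-week-old, 24.2 and 22.8 CPM in the 12-week-old and 33.6 and 36.7 CPM in the 18-week-old libraries. Both 18-week-old libraries were above the other 4. The change at 18 against 6 weeks was 0.59 on the log2 scale (SE 0.11, edgeR adjusted p 0.0398). Within horizontal cells it was 0.18 (SE 0.11, adjusted p 0.424). Horizontal cells gave 8.79% and 9.19% of all UMIs at 6 weeks, 10.3% and 10.6% at 12 weeks and 11.8% and 13.5% at 18 weeks, and whether this share had a part in the PCDH8 difference was not tested. The adjusted p in all cells was 0.0355 to 0.210 when a library was left out. It was 0.203 and 0.210 when the first or second 6-week-old library was missing, and 0.0949 and 0.107 when the first or second 18-week-old one was.

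Both called members of bipolar cells were lower at 18 weeks. PCDH20 (XLOC_012872), a protocadherin at 20 CPM in no other type, was at 35.7 and 29.6 CPM at 6 weeks, 25.0 and 32.3 CPM at 12 weeks and 21.2 and 21.5 CPM at 18 weeks. The 18-week-old libraries were below all others. The change was −0.68 on the log2 scale (SE 0.15, edgeR adjusted p 0.0171, with 6.94% of all genes called in bipolar cells). PCDH20 was highest in bipolar cluster 1, where it was at 176 and 153 CPM at 6 weeks and at 95.6 and 102 CPM at 18 weeks. That cluster made up 7.30% and 7.03% of bipolar cells at 6 weeks and 9.36% and 7.89% at 18 weeks. No age test was run within the cluster, and the part of its share of cells in the PCDH20 change was not tested. Leaving out a library gave an adjusted p of 0.00944 to 0.138, and the call was lost without the first 6-week-old library (0.138) and without the first (0.0530) or second (0.128) 18-week-old one. DESeq2 gave an adjusted p of 0.0585.

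The clustered entry PCDH2AC (XLOC_002511) was at 41.6 and 34.3 CPM at 6 weeks, 28.7 and 37.7 CPM at 12 weeks and 23.1 and 28.8 CPM at 18 weeks in bipolar cells. The 6- and 18-week-old libraries did not overlap, while the 12-week-old ones spanned the gap. On the log2 scale the change was −0.61 (SE 0.15, edgeR adjusted p 0.0331). The call was lost without the first or second 6-week-old library (0.218 and 0.0719), without the first or second 18-week-old one (0.145 and 0.0809), and with DESeq2 (0.102). The 4 rod marker entries, all detected in every library of bipolar cells, summed to 4092 to 4371 CPM at 6 weeks and 3160 to 5095 CPM at 18 weeks there, and the 10 amacrine entries (8 of them detected in every library) to 132 to 156 CPM and 68.6 to 79.8 CPM. In GABAergic amacrine cells PCDH20 was at 1.56 ± 1.9 CPM and PCDH2AC (XLOC_002511) at 51.7 ± 14 CPM, and the part of amacrine RNA in the bipolar values was not tested.

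CDH8 (XLOC_000077), a type II cadherin, fell in horizontal cells. It was at 69.5 and 77.4 CPM at 6 weeks, 58.7 and 53.6 CPM at 12 weeks and 40.3 and 53.4 CPM at 18 weeks. The 6-week-old libraries were above all others. The change was −0.72 on the log2 scale (SE 0.16, edgeR adjusted p 0.0235, with 4.35% of all genes called in horizontal cells). The call was lost without the second 6-week-old library (adjusted p 0.114), without the first (0.205) or second (0.0689) 18-week-old one, and with DESeq2 (0.0573). CDH8 was highest in amacrine cells, and in the GABAergic type its log2 fold change was 0.33 (SE 0.24, adjusted p 0.699). Of the 10 amacrine marker entries, 7 were detected in every library of horizontal cells. The list summed to 2439 to 2658 CPM at 6 weeks and 3542 to 3834 CPM at 18 weeks. In bipolar cells it summed to only 132 to 156 CPM at 6 weeks. Whether horizontal cells express these entries themselves was not tested, so the sum does not measure amacrine RNA there. The part of amacrine RNA in the CDH8 values was not tested.

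CDH19 (XLOC_000139), a cadherin known from glial precursors of the mammalian peripheral nerve, rose in Müller glia. It was at 4.7 and 1.07 CPM at 6 weeks (9 and 3 UMIs), 10.8 and 10.3 CPM at 12 weeks (25 and 22 UMIs) and 10.0 and 19.5 CPM at 18 weeks (21 and 35 UMIs). Both 18-week-old libraries were above both 6-week-old ones. The log2 fold change of CDH19 was 2.47 (SE 0.51, edgeR adjusted p 0.00926, with 5.31% of all genes called in Müller glia). The other CDH19 entry (XLOC_002562, mean 3.03 CPM) did not pass the low-count filter in Müller glia. The rise of XLOC_000139 thus rests on a single entry and on few UMIs. Neither 6-week-old library reached the level of the low-count filter. XLOC_000139 was therefore kept for the test only through the older libraries, in which it was higher. The adjusted p was 0.113 when the second 6-week-old library was left out, and 0.117 when the second 18-week-old one was.

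Oligodendrocytes had the highest level of CDH19 (XLOC_000139), at 27.8, 19.6, 46.3, 32.6, 30.4 and 5.47 CPM, with no call (log2 fold change −0.17, SE 0.58, adjusted p 0.957). All 6 oligodendrocyte marker entries were detected in every library of Müller glia, and their sum went from 83.1 to 89.5 CPM at 6 weeks to 47.9 to 55.0 CPM at 18 weeks. Whether the rise in Müller glia differed from the other 15 types was tested with limma on differences within a library. The difference was 2.17 (SE 0.47, limma adjusted p 0.0810), with 0.983% of genes called in that fit. Apart from oligodendrocytes, none of the other types had a CDH19 (XLOC_000139) mean above 0.733 CPM. The mean log2 fold change of the other types was 1.29e-04. Types with so few UMIs can hardly show a change, so this test cannot tell whether the rise is particular to Müller glia. No member passed 5% in the fits for horizontal (0.0354% of genes called) or bipolar cells (0% called).

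**Figure D3:**
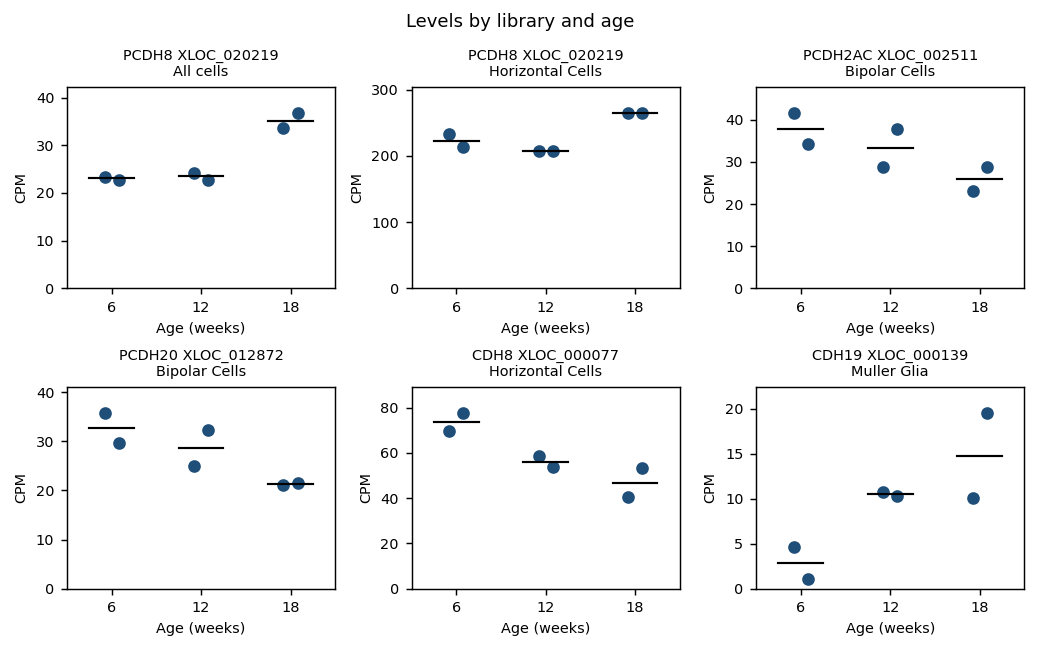
Level in CPM of the called members by age in weeks, in the cells named above each panel, with 1 point per library and a line at the mean of 2 libraries. PCDH8 is also shown in horizontal cells, where it was not called. The y axes start at 0.

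In the type of its own highest level, each of the 51 members at 20 CPM was tested at 18 against 6 weeks. The log2 fold change was above 0 for 23 and below 0 for 28, with a median of −0.05, and was less than 0.5 in size for 41. PCDH20 in bipolar cells was the only one called by edgeR. The lowest value was that of PCDH17(1OF2) in GABAergic amacrine cells (−1.14, SE 0.48, adjusted p 0.468), and the highest that of the other PCDH17 entry (XLOC_013337) in S-cones, at 316 and 280 CPM at 6 weeks and 520 and 445 CPM at 18 weeks (0.69, SE 0.20, adjusted p 0.0782). The cdh23 entry XLOC_007421 in rods had −0.96 (SE 0.28, adjusted p 0.0877), and CDHR1A in L/M-cones −0.52 (SE 0.16, adjusted p 0.0825). Neither CDHR1A in L/M-cones, nor cdh23 in rods, nor PCDH17 in S-cones was called in the main setting. Their 6- and 18-week-old libraries did not overlap, but this also held for many other members, such as CDH11, CDH5 and PCDH18A. The share of all genes without overlap was not taken. With 2 libraries per age, values can fail to overlap without an age change. With only the 4 libraries of both ages, cdh23 in rods and PCDH17 in S-cones were called, and cdh23 in rods also with no low-count filter. CDHR1A was called in all cells with DESeq2, with the replicate block and with the 4 libraries, but in L/M-cones with no other setting. The share of all genes called in those settings was not taken.

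**Figure D4:**
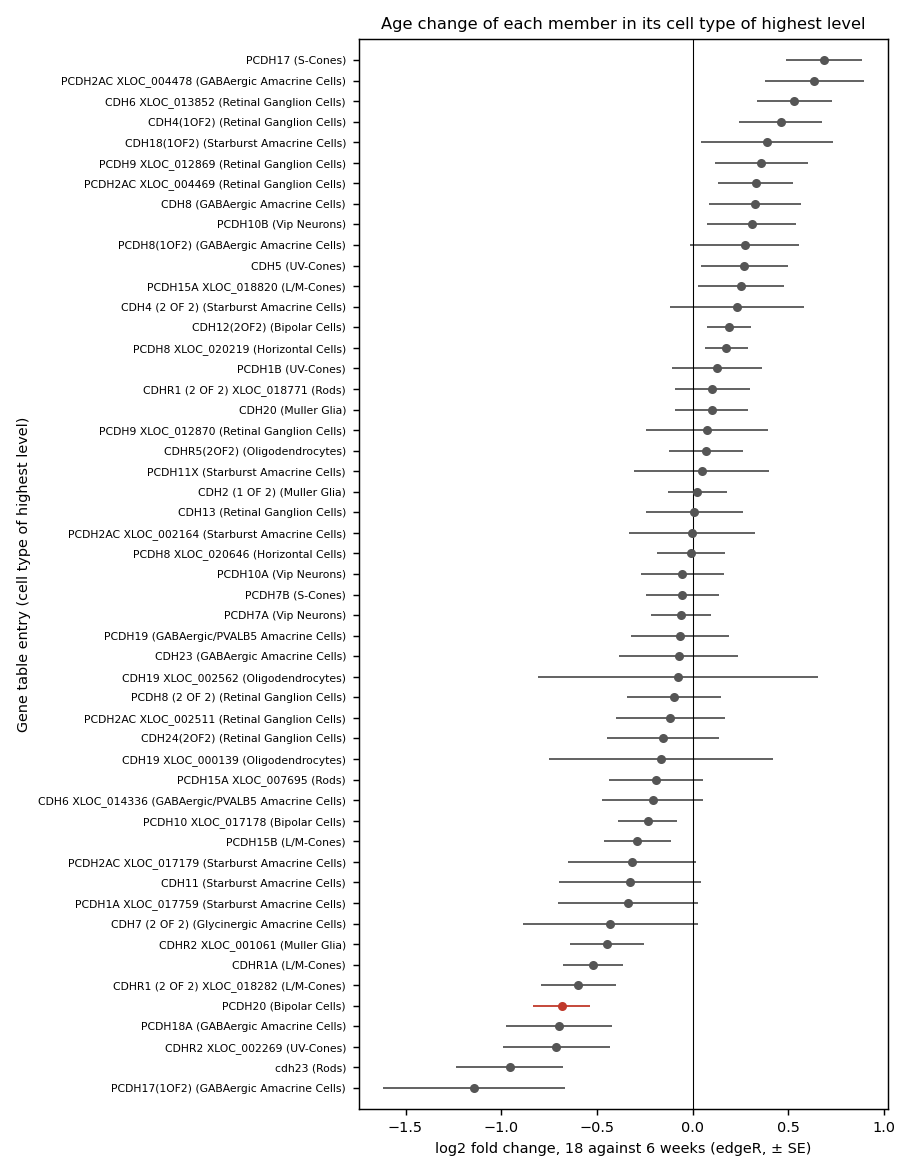
log2 fold change at 18 against 6 weeks (x axis, edgeR, bars are ± 1 SE) of the 51 members at 20 CPM, each in its cell type of highest level. The 1 called entry, PCDH20 in bipolar cells, is drawn in red and 41 entries lie within 0.5 of 0.

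None of the members with the highest levels was called by edgeR in its leading type. On the log2 scale PCDH11X in starburst amacrine cells had 0.05 (SE 0.35, adjusted p 0.997), PCDH19 in GABAergic/PVALB5 amacrine cells −0.06 (SE 0.26, 0.978) and PCDH15A (XLOC_007695) in rods −0.19 (SE 0.25, 0.790). In L/M-cones PCDH15A (XLOC_018820) had 0.25 (SE 0.22, adjusted p 0.632) and PCDH15B −0.29 (SE 0.18, 0.442). The SE of the starburst value leaves room for changes of over 0.5 on the log2 scale.

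Genes that act together with cadherins were looked up as 50 entries in 4 groups. In the sum of all cells edgeR called 0 of 47 partner entries tested at 18 against 6 weeks (3.63% of all genes were called), with 5 at an unadjusted p under 0.05 and 0 by DESeq2. In the 16 types 11 of 376 partner and type pairs were called (5 higher, 6 lower), beside 2.36% of all gene and type pairs, a share near that of the partners. Of these 11, DESeq2 called 5, gave an adjusted p above 0.05 for 4 and none for the 2 of CELSR1A, and 3 stayed called by edgeR whichever library was left out (CLSTN2 in S- and L/M-cones and CELSR1A in horizontal cells). None of 103 pairs of the catenins, which tie classical cadherins to actin, was called by edgeR (12 at an unadjusted p under 0.05, and 0 by DESeq2). The other members of the cadherin superfamily gave 8 of 108 pairs (4 higher, 4 lower), the Usher and photoreceptor partners 1 of 103 (lower) and the adhesion and shedding partners 2 of 62 (1 higher, 1 lower).

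Calsyntenin CLSTN2 (XLOC_014836), a cadherin-superfamily protein of synapses, was called higher in 3 types. In S-cones it was at 32.7 and 27.4 CPM at 6 weeks, 84.6 and 37.4 CPM at 12 weeks and 162 and 151 CPM at 18 weeks, and both 18-week-old libraries were above the rest. The log2 fold change was 2.35 (SE 0.35, edgeR adjusted p 7.6e-05, with 1.47% of all genes called in S-cones). In L/M-cones CLSTN2 rose by 1.42 (adjusted p 1.36e-04, 2.94% of all genes called) and in Müller glia by 1.67 (adjusted p 0.00620, and 0.0776 when the second 6-week-old library was left out).

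CELSR1A (XLOC_004811), a cadherin of planar cell polarity, fell in horizontal cells from 20.6 and 21.5 CPM at 6 weeks through 17.7 and 15.2 CPM to 3.84 and 4.69 CPM at 18 weeks. The 18-week-old libraries were far below the others. The log2 fold change was −2.35 (SE 0.31, edgeR adjusted p 5.76e-04). In L/M-cones it was −2.54 (SE 0.56, edgeR adjusted p 0.0189). Levels there were low, with 14.2 and 9.10 CPM at 6 weeks and 2.73 and 0.963 CPM at 18 weeks, so this value rests on few UMIs. The call in L/M-cones was lost without the first 6-week-old library (0.120) or the first (0.0868) or second (0.222) 18-week-old one. PROM1B (XLOC_003157), whose mammalian protein binds the photoreceptor cadherin at the outer segment, fell in rods from 65.6 and 66.6 CPM to 33.0 and 29.9 CPM (−1.04, SE 0.24, adjusted p 0.0270, with 2.49% of all genes called in rods). That call was lost with DESeq2 (adjusted p 0.0863), without the second 6-week-old library (0.132) and without the first (0.156) or second (0.286) 18-week-old one. The other calls were CLSTN3 higher and FAT1 lower in bipolar cells, 1 MLLT4 entry higher in L/M-cones and another lower in Müller glia, and DCHS2 lower in oligodendrocytes (−1.23, adjusted p 0.0390, 1.1% of all genes called). DESeq2 did not call FAT1, the MLLT4 entry of Müller glia or DCHS2 (adjusted p 0.195, 0.0921 and 0.307).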

How the data were processed

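Raw UMI counts per gene and cell, with cell and gene tables, were used as the authors deposited them. The authors had made the counts with Cell Ranger 7.0.1 (per the labels) on a custom transcriptome of the GRZ assembly, and the cells held 1001 to 19991 UMIs. Other deposited columns (library, cluster, type and total) were used as the authors gave them. Whether doublets had been removed is not given in the sources used here. Members and partner lists were chosen with earlier results of these data known. Counts were summed per library and type, and ages were compared with edgeR 4.0.16 (quasi-likelihood test, TMM, filterByExpr, age as a factor of 3 levels, 6 libraries, Benjamini-Hochberg over all genes of a fit, 5%). limma 3.58.1 (log2 CPM, prior count 2) compared the age change of a type with the other types, in the 3 types with a called member. Replicates of an age differed by more than sampling noise (chi-square per degree of freedom 18.8 to 26.9). P-values measure the spread between pooled libraries. Named were called members, the 2 leading members of each type and the 10 of all cells, textbook members and copies at 20 CPM. Scripts were tested on simulated data, and DESeq2 1.42.0, other scalings and filters, left-out libraries and a replicate block were alternatives.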

Additional observations from a re-analysis of the deposited data

How the results depend on the processing

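The 1 member called at 18 against 6 weeks in all cells became 5 with DESeq2, 3 with only the 4 libraries of both ages, and 0 to 4 with a library left out. The 4 pairs of a member and a type became 1 with DESeq2, 21 with no low-count filter, 12 with the 4 libraries, and 0 to 13 with a library left out (0 when the second 18-week-old library was missing). At 12 against 6 weeks the pairs became 3 with no filter and 0 to 1 with a library left out, and at 18 against 12 weeks 7 with no filter, 1 with the 4 libraries and 0 to 3 with a library left out. The limma test of a type against the others called 0 to 1 members with a library left out (CDH19 in Müller glia, adjusted p 0.0411 when the first 6-week-old library was missing). The replicate block gave 3 members in all cells and 7 pairs at 18 against 6 weeks, and 1 pair at 18 against 12 weeks. The share of all genes called was taken for the main setting only. Counts under the other settings therefore cannot tell a change of members from a change in calls over all genes. Replicate numbers share no stated origin and were not taken as pairs. The correlation of replicate 1 minus replicate 2 over 16273 genes was −0.345 (6 and 12 weeks), −0.358 (6 and 18 weeks) and 0.532 (12 and 18 weeks). These values do not show that libraries of different ages are independent. In all cells, the members summed to 3494 and 2886 CPM at 6 weeks. The sums were 2594 and 3425 CPM at 12 weeks and 2705 and 3261 CPM at 18 weeks. Whether libraries of different ages share a batch was not tested. The cause of the differences between settings was not tested.

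No called member changed direction. Uncalled members did so at 18 against 6 weeks. With a library left out, their log2 fold changes ran from −0.19 to 0.13 for PCDH2AC (XLOC_002164) and −0.26 to 0.39 for PCDH11X in starburst amacrine cells, −0.40 to 0.087 for PCDH15A (XLOC_007695) in rods, −0.21 to 0.0096 for PCDH19 in GABAergic/PVALB5 amacrine cells, −0.17 to 0.20 for CDH2 (1 OF 2) in Müller glia, −0.13 to 0.027 for PCDH7B in S-cones and −0.084 to 0.69 for PCDH15A (XLOC_018820) in L/M-cones, and in all cells −0.36 to 0.42 for PCDH15A (XLOC_018820) and −0.35 to 0.22 for PCDH15B. PCDH11X in starburst amacrine cells had −0.041 with no filter, and PCDH15A (XLOC_018820) in all cells had 0.023 with the replicate block. Of the 51 types of highest level, 45 stayed with cells weighted equally and 37 to 47 in a single library. With 2 libraries per age, only large or even changes can pass, and members under 20 CPM rest on few UMIs.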
